A study of Mus musculus with 2 samples.

Results

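Invariant natural killer T (NKT) cells of the liver were described here by the T cell receptor segment that marks them. They were taken as barcodes with at least 1 unique molecular identifier (UMI, a tag that counts 1 captured transcript) of Trav11, at least 1 of Trac, and none of Cd79a or Cd8b1, among barcodes with 1500 or more UMIs and under 10% mitochondrial UMIs. This rule found 513 barcodes in the antibiotic library and 258 in the vehicle library, 771 of the 16052 barcodes of both libraries that passed the quality limits. The members were thus chosen by their UMI counts of these 4 genes, whose levels are given as a description.

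The libraries held leukocytes of mouse liver sorted by FACS for CD45, the surface protein of blood-derived cells, from 6-week-old female mice. The antibiotic library came from mice whose drinking water held 4 antibiotics for at least 1 week, metronidazole and ampicillin at 1 mg/mL and neomycin and vancomycin at 0.5 mg/mL, and the vehicle library from mice given the vehicle. There was 1 library per condition, made with the 10x Chromium 3′ v2 kit, which reads transcripts near their 3′ end, and no source used here states how many mice went into each library. Cells of 1 library are not replicates, so no comparison between the libraries was tested. Intervals are exact 95% intervals that cover counting error only.

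Trav11 barcodes carried 2042817 UMIs in the antibiotic library (median 3696 per barcode and 1351 genes) and 1170876 UMIs in the vehicle library (median 4163.5 and 1499 genes). The depth per barcode ran between 1552 and 15050 UMIs in the antibiotic library and between 1925 and 16225 in the vehicle library. Mitochondrial transcripts made up a median of 2.04% of UMIs in antibiotic and 1.66% in vehicle Trav11 barcodes. Over the whole libraries, 7050 antibiotic and 9002 vehicle barcodes passed the quality limits, and 93 barcode sequences did so in both. Of the Trav11 barcodes, 10 antibiotic and 3 vehicle ones had such a shared sequence.

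Invariant NKT cells are T lymphocytes whose receptor recognizes glycolipids presented by CD1d. In mice the alpha chain of this receptor joins the Trav11 segment, called V alpha 14 in the older literature, to Traj18, and pairs with beta chains of the V beta 8, V beta 7 or V beta 2 families. The transcription factor PLZF, encoded by Zbtb16, directs their development. In the mouse liver most are NKT1 cells, which express T-bet and release interferon gamma and interleukin 4 soon after activation, and the receptor CXCR6 keeps them in the sinusoids.

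Trav11 (ENSMUSG00000096615) lies on mouse chromosome 14, on the plus strand, at chr14:53519303-53519859 in GRCm38 (mm10), in 2 exons of 52 and 291 bases. The locus holds copies of this segment. Trav11d, at chr14:52824357-52824912, was identical to Trav11 over all 342 bases of its annotated transcript, and the pseudogene Trav11n, at chr14:53135122-53135678, was identical at 335 of 343 bases. The second exon, which encodes most of the variable domain, is shown for Trav11 and for Trav11n, with capitals at the 6 bases of Trav11n that differ.
Trav11: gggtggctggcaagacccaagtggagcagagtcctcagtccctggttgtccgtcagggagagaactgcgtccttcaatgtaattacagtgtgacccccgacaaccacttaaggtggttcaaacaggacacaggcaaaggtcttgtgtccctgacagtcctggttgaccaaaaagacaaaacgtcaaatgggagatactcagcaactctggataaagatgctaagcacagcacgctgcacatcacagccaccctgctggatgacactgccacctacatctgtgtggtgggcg
Trav11n: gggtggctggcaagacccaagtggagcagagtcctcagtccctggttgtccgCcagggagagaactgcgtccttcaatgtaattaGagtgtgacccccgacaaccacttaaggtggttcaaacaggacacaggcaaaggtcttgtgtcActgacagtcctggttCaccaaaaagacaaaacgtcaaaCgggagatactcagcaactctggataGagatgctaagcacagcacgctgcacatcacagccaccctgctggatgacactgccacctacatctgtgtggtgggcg
No source used here says how reads shared by these copies were counted. Among barcodes past the quality limits the antibiotic library counted 854 UMIs of Trav11, 7 of Trav11d and 15 of Trav11n, and the vehicle library 447, 6 and 5. The barcodes with a Trav11d or Trav11n UMI but no Trav11 UMI numbered 13 in the antibiotic and 11 in the vehicle library, and the rule left them out.

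Most members rested on a single Trav11 UMI. In the antibiotic library 360 barcodes had 1 UMI of Trav11, 112 had 2, 28 had 3 and 13 had 4 or more, up to 6. In the vehicle library 198 barcodes had 1, 40 had 2, 16 had 3 and 4 had 4 or more, up to 5. Exactly 1 Trac UMI was found in 34 antibiotic and 7 vehicle members, and the median was 5 and 7 Trac UMIs. Just outside the rule were Trav11 barcodes with Trac and Cd79a UMIs (66 antibiotic and 69 vehicle), with Trac and Cd8b1 but no Cd79a UMIs (9 and 5) and without a Trac UMI (13 and 4).

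The label was checked against markers that the rule did not use. Cxcr6 was found in 92.2% of antibiotic and 95.3% of vehicle Trav11 barcodes, and its pooled level was 909 and 1168 CPM (the UMIs of a gene relative to all UMIs of the set). Zbtb16 was sparse, with 98 and 77 UMIs, and was seen in 16.8% of antibiotic and 25.6% of vehicle Trav11 barcodes. After every barcode had been thinned to 1500 UMIs these shares were 7.02% and 8.91%, against 0.154% and 0.166% of B cell barcodes (Cd79a without Trac, median depths of 2142.5 antibiotic and 2548 vehicle UMIs), so Zbtb16 stood above the background that free RNA gives. Thinned shares of Cxcr6 were 70.0% in antibiotic and 80.2% in vehicle Trav11 barcodes, against 64.6% and 64.7% of Trac barcodes without a Trav11 UMI and 5.24% and 4.79% of B cell barcodes. Tbx21, which encodes T-bet, was found in 26.5% and 37.2% of Trav11 barcodes, and in 14.0% and 15.5% after thinning, against 11.6% and 12.2% of Trac barcodes without Trav11 and 1.62% and 1.46% of B cell barcodes. Klrb1c, which encodes NK1.1, was found in 83.6% and 66.3%, and in 56.7% and 41.5% after thinning, against 53.0% and 33.7% of Trac barcodes without Trav11 and 5.55% and 4.75% of B cell barcodes. These markers thus stood above B cell barcodes. Cxcr6, Tbx21 and Klrb1c were also common in Trac barcodes without Trav11, while the share of Zbtb16 in those barcodes is not reported here. The markers do not by themselves set the members apart from other T cells.

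Several defining markers of other cells were at or near 0, while the summed level of other markers on the same lists was not. Foxp3, the factor of regulatory T cells, had no UMI in either library, which allows up to 1.47 CPM in antibiotic and 2.56 CPM in vehicle Trav11 barcodes at 3 UMIs. Cd8a had 3 and 3 UMIs, Trdc, the constant chain of gamma-delta T cells, 13 and 4, Eomes 2 and 0, Ncr1 3 and 14, Ccr7 9 and 5, and Csf1r 2 and 1. Immunoglobulin transcripts were present throughout, with 354 antibiotic and 321 vehicle UMIs of Igkc, and from their level beside that in barcodes of very few UMIs free RNA was estimated at no more than 6.93% of antibiotic and 6.89% of vehicle UMIs of these barcodes. In the list of 18 NK and ILC1 genes the 6 measured ones gave 1 higher and 5 lower in antibiotic Trav11 barcodes, beside 59.9% lower among all genes. The summed level of all 18 was 388 CPM in antibiotic and 684 CPM in vehicle barcodes. The 20 genes of the B cell list summed to 881 CPM in antibiotic and 1199 CPM in vehicle barcodes, and the 27 of the myeloid list to 535 and 731 CPM. The gamma-delta T cell list (13 genes) summed to 463 and 662 CPM, mostly from transcripts of gamma chain constant regions, the regulatory T cell list (9 genes) to 503 and 535 CPM, mostly from Tnfrsf18 and Izumo1r, and the naive T cell list (13 genes) to 597 and 555 CPM, mostly from Satb1 and Lef1. The part of these cells in the results was not tested.

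Other alpha segments were rare in Trav11 barcodes. Apart from Trav11 and its copies, a Trav UMI was found in 28 of 513 antibiotic and 22 of 258 vehicle barcodes. Beta segments were thinly covered by this 3′ assay, with any Trbv UMI in 42 antibiotic and 15 vehicle barcodes. Of these, 16 antibiotic barcodes (38.1%, interval 23.6% to 54.4%) and 6 vehicle barcodes (40.0%, interval 16.3% to 67.7%) had a segment of the V beta 8, V beta 7 or V beta 2 families. Trbv12-2, which is in none of these families, was found in 24 of the 42 antibiotic and 8 of the 15 vehicle barcodes. Trav11-negative Trac barcodes, which passed the same limits with no Trav11 UMI, showed Trbv12-2 in 166 of 341 antibiotic and 83 of 179 vehicle barcodes with a Trbv UMI. The 3 families of invariant NKT cells were seen there in 119 and 81 barcodes, so at this depth beta segments did not separate the sets.

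Trav11 barcodes took up a larger share of the antibiotic than of the vehicle library. They were 7.28% of antibiotic barcodes (interval 6.68% to 7.91%) and 2.87% of vehicle barcodes (interval 2.53% to 3.23%), a ratio of 2.54 (interval 2.18 to 2.96). Trac barcodes without Cd79a or Cd8b1 were themselves 59.7% of the antibiotic and 35.5% of the vehicle library. Within them Trav11 was found in 12.2% of antibiotic barcodes (513 of 4207) and 8.07% of vehicle barcodes (258 of 3197), a ratio of 1.51 (interval 1.30 to 1.76). Among those that also had Cxcr6, the shares were 13.1% and 9.42%, a ratio of 1.39 (interval 1.19 to 1.63). These are shares of sequenced cells, so fewer other cells and more NKT cells cannot be told apart.

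**Figure D1:**
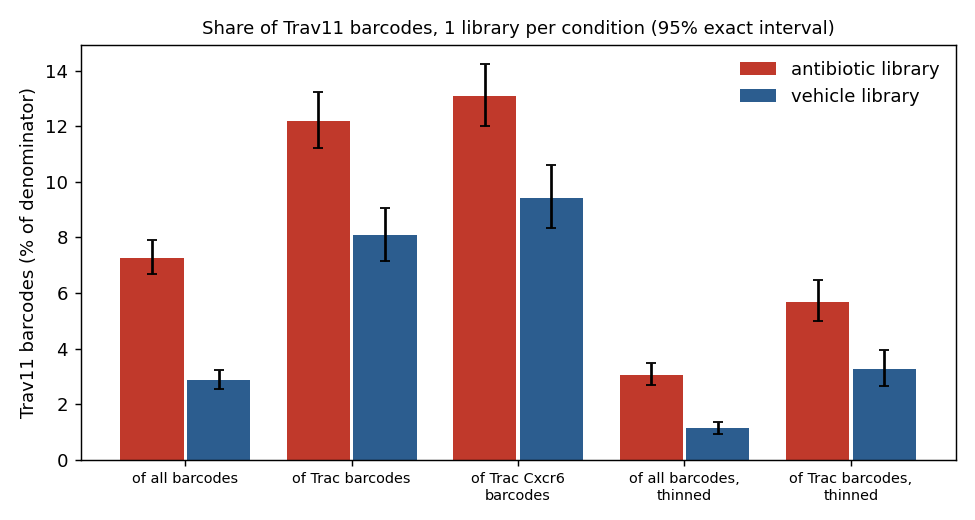
Share of Trav11 barcodes (y axis, % of the denominator named on the x axis) in the antibiotic (red) and vehicle (blue) library, 1 library each, with exact 95% intervals. Antibiotic bars are the taller ones for every denominator, and thinned bars are lower as the draw of 1500 UMIs often leaves the Trav11 UMI out.

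Detection of Trav11 limited these shares. When each barcode was thinned to 1500 UMIs before the rule was applied, 216 antibiotic and 102 vehicle barcodes were left, 3.06% and 1.13% of the libraries and 5.69% and 3.26% of the thinned Trac barcodes. The ratios were 2.70 (interval 2.13 to 3.46) and 1.75 (interval 1.37 to 2.23). As background, a Trav11 UMI was found in 1 of 1298 antibiotic and 0 of 3009 vehicle B cell barcodes, where the interval of the count of 0 reaches up to 0.123%.

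Trav11 barcodes were close to Trav11-negative Trac barcodes of the same library. Of 7464 genes with at least 100 UMIs in each library's pair of sets, 0 (0%) were 2-fold or more higher in Trav11 barcodes in both libraries and 31 (0.415%) were 2-fold or more lower in both. The comparison set also holds NKT cells whose Trav11 transcripts were not captured. The lower genes included several that mark other cells, among them Lyz2, C1qb and C1qc of macrophages, Trdc of gamma-delta T cells, Ncr1, Klra7 and Tyrobp of NK cells, and Ccr7, S1pr1 and Klf2 of recirculating T cells. Where Cxcr6 was required of both sets, 7 genes were past 2-fold.

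Genes higher in Trav11 barcodes differed by modest ratios. F2r, the thrombin receptor, reached 116 CPM in Trav11 against 86.2 CPM in Trav11-negative antibiotic barcodes and 132 against 93.5 CPM in vehicle ones, ratios of 1.35 and 1.42. Asb2, a ubiquitin ligase subunit, had ratios of 1.34 in the antibiotic and 1.47 in the vehicle library. Cd160, an activating receptor of cytotoxic lymphocytes, had 1.21 and 1.26, and Ckb, the brain-type creatine kinase, 1.20 and 1.30. Cxcr6 had 1.12 and 1.19, Id2, a regulator of innate-like lymphocytes, 1.10 and 1.15, and Dusp2, a MAP kinase phosphatase, 1.29 and 1.24. Ltb, Serpina3g and Cd3g were the others of the leading 10. The interval of each lay above 1 in both libraries, which the choice by the weaker library's interval bound favoured.

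The 10 leading lower genes of Trav11 barcodes were headed by Vim. This gene, which encodes the filament protein vimentin, was at 11.7 CPM in Trav11 against 61.0 CPM in Trav11-negative antibiotic barcodes, and at 48.7 against 137 CPM in vehicle ones. Its ratios were 0.193 (interval 0.123 to 0.289) and 0.355 (interval 0.268 to 0.462). Tsc22d3, a glucocorticoid-induced gene, had ratios of 0.566 and 0.438, and S100a4, a calcium-binding protein, 0.471 and 0.706. Atp1b3, Rgs10, Emp3, Lgals1, Crip1, Samhd1 and Cd247 followed, with ratios between 0.626 and 0.869.

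**Figure D2:**
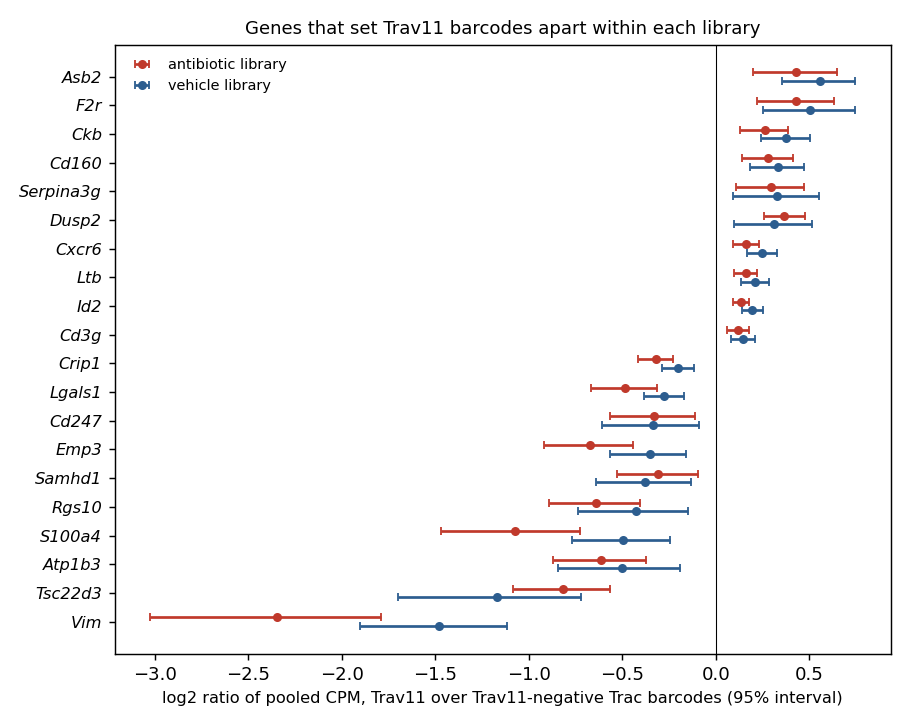
Log2 ratio of pooled CPM (x axis), Trav11 over Trav11-negative Trac barcodes, for the 10 leading higher and 10 leading lower genes (y axis) in the antibiotic (red) and vehicle (blue) library, with 95% intervals. The points of both libraries lie on the same side of 0 for all 20 genes, which the rule for choosing them required, and Vim is farthest from 0.

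Between the libraries, 3591 genes with at least 100 UMIs in Trav11 barcodes were compared as pooled CPM, antibiotic over vehicle. In antibiotic Trav11 barcodes 111 genes (3.09%) were 1.5-fold or more higher and 252 (7.02%) were 1.5-fold or more lower. Of all 3591 genes 1441 (40.1%) were higher by any amount and 2150 (59.9%) lower, and their median log2 ratio was -0.08, the background for the counts of each list. Transcripts of ribosomal proteins took 38.6% of antibiotic and 31.4% of vehicle UMIs, which lowers the CPM of every other gene. Without them in the total all log2 ratios moved up by 0.16 and the counts were 266 higher and 112 lower, and with the median ratio set to 1 they were 169 higher and 168 lower. Ratios within that shift of 1 therefore depend on the scaling. Most of these genes had the same sign in Trav11-negative Trac barcodes, 107 of the 111 higher and 241 of the 252 lower ones. Fewer, 47 and 110, were also 1.5-fold or more in that direction there. In B cell barcodes 97 and 215 had the same sign, and in barcodes with Trac and Cd8b1 but no Cd79a UMIs 98 and 195 did. The share of all 3591 genes with the same sign is not reported here.

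The 12 leading higher genes of the antibiotic library were headed by Cirbp, an RNA-binding protein induced by cold. It reached 404 CPM in antibiotic and 130 CPM in vehicle Trav11 barcodes, a ratio of 3.11 (interval 2.62 to 3.73), and was seen in 398 of 513 and 107 of 258 barcodes. Its relative Rbm3 was at 1170 and 637 CPM, a ratio of 1.84 (interval 1.69 to 2.0). Il7r, the receptor chain for the survival cytokine interleukin 7, was at 329 and 125 CPM, a ratio of 2.64 (interval 2.21 to 3.18). It was found in 291 of 513 antibiotic and 91 of 258 vehicle barcodes, with a median of 231 CPM per antibiotic and 0 CPM per vehicle barcode.

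Dusp2 was at 395 CPM in antibiotic and 182 CPM in vehicle Trav11 barcodes, a ratio of 2.17 (interval 1.86 to 2.54). Zfp36l2, which destabilizes messenger RNA and restrains proliferation, had 351 and 185 CPM, Txnip, an inhibitor of thioredoxin and glucose uptake, 243 and 138 CPM, and Serinc3, a membrane protein, 411 and 189 CPM. Klrb1c had 575 CPM in antibiotic and 355 CPM in vehicle barcodes, a ratio of 1.62 (interval 1.45 to 1.81). Sdhaf1, an assembly factor of succinate dehydrogenase, H1f0, a linker histone, Gltscr2, a nucleolar protein, and Atp8a2, a lipid flippase, had ratios between 1.65 and 2.83.

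Cirbp and Rbm3 were higher in the antibiotic library in every barcode set compared. Cirbp had ratios of 2.87 in Trav11-negative Trac barcodes, 2.35 in Cd8b1 Trac barcodes (Trac and Cd8b1 without Cd79a), 2.67 in B cell barcodes and 3.50 in NK barcodes (Ncr1 without Trac or Cd3e). Rbm3 had 1.84, 1.83, 1.88 and 1.99 in the same sets. Klrb1c had ratios of 1.84, 1.76, 0.938 and 1.32, below 1 in B cell barcodes alone, and Dusp2 had 2.09, 1.51, 1.17 and 1.20. The differences between sets were not tested.

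**Figure D3:**
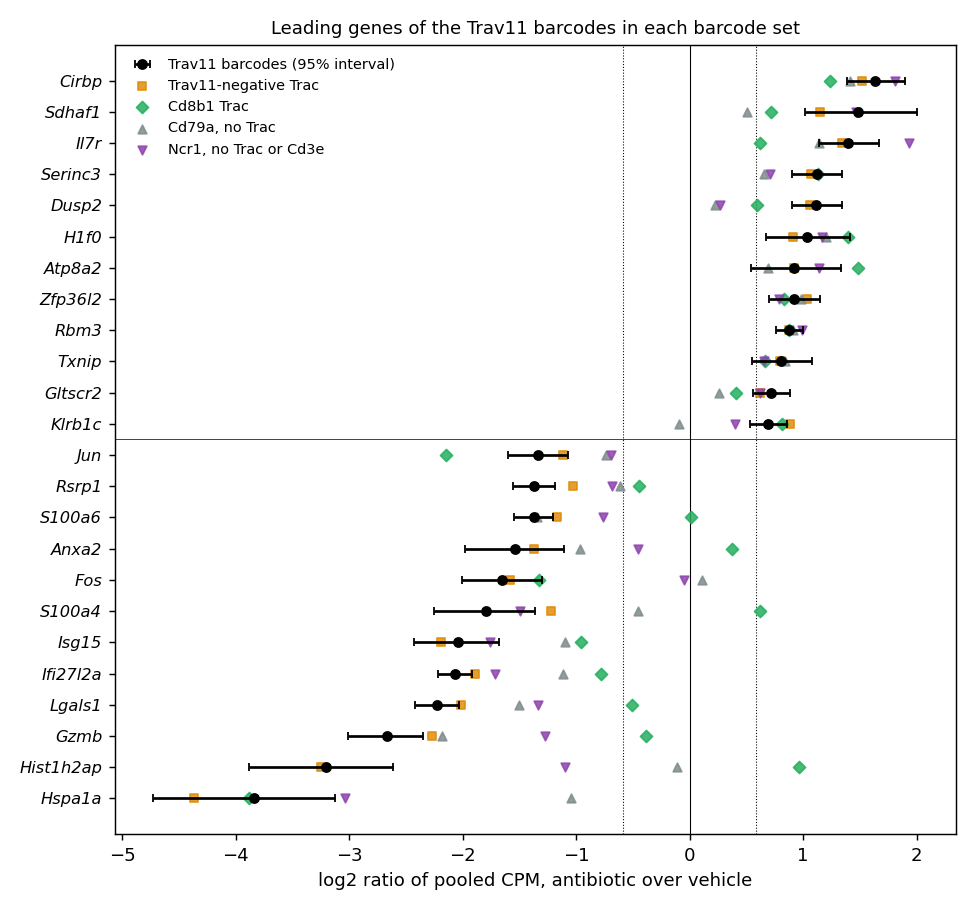
Log2 ratio of pooled CPM, antibiotic over vehicle (x axis), for the 12 leading higher and 12 leading lower genes of Trav11 barcodes (y axis; black, with 95% intervals) and the same ratio in 4 other barcode sets (coloured symbols). Dotted lines mark 1.5-fold. Cirbp and Rbm3 are higher in all 5 sets, and S100a4 and Anxa2 are lower in Trav11 but higher in Cd8b1 Trac barcodes.

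Among the lower genes Gzmb, the serine protease granzyme B of cytotoxic granules, stood out. It was at 49.0 CPM in antibiotic and 313 CPM in vehicle Trav11 barcodes, a ratio of 0.157 (interval 0.124 to 0.196), and was found in 56 of 513 and 94 of 258 barcodes. One vehicle barcode held 73 of the 366 vehicle UMIs. After thinning, Gzmb was seen in 5.85% of antibiotic and 21.3% of vehicle Trav11 barcodes, against 1.46% and 5.08% of B cell barcodes. The ratio was 0.207 in Trav11-negative and 0.764 in Cd8b1 Trac barcodes.

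Other granule genes followed in the same direction with smaller ratios. Of 10 cytotoxic granule genes measured, 2 were higher and 8 lower in antibiotic Trav11 barcodes, none 1.5-fold or more higher and 5 1.5-fold or more lower, beside 59.9% lower and 7.02% 1.5-fold or more lower among all genes, and the median log2 ratio was -0.51. The 5 were Gzmb, Gzma, Nkg7, Ctsw and Cst7. Nkg7, a granule membrane protein, was at 1432 CPM in antibiotic and 2157 CPM in vehicle barcodes, a ratio of 0.664 (interval 0.630 to 0.701) that lies just past 1.5-fold. Gzma rested on 45 and 80 UMIs. It was short of 1.5-fold, at a log2 ratio of -0.16, with barcodes thinned before the rule. Nkg7 and Ctsw were short of it without ribosomal genes in the total, at -0.43 and -0.46. Fasl, the death ligand, was at 88.1 and 85.4 CPM, a ratio of 1.03 (interval 0.804 to 1.33).

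Genes induced by interferon were lower in antibiotic Trav11 barcodes almost as a whole. Of 33 measured, 32 were lower and 18 were 1.5-fold or more lower, beside 59.9% and 7.02% of all genes, and the median log2 ratio was -0.64. Ifi27l2a was at 260 CPM in antibiotic and 1089 CPM in vehicle Trav11 barcodes, a ratio of 0.239 (interval 0.216 to 0.265), with a median of 0 CPM per antibiotic and 623 CPM per vehicle barcode. Isg15, a ubiquitin-like modifier, was at 42.1 and 174 CPM, a ratio of 0.242 (interval 0.186 to 0.312). Bst2, the antiviral membrane protein tetherin, was at 99.9 and 198 CPM. Ly6e was the exception at 2138 and 1993 CPM, a ratio of 1.07 (interval 1.02 to 1.13). The list's median log2 ratio was -0.60 in Trav11-negative Trac, -0.23 in Cd8b1 Trac, -0.41 in B cell and -0.19 in NK barcodes.

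The lower level was spread over the barcodes. After thinning to 1500 UMIs a Trav11 barcode held a median of 9 interferon-list UMIs in the antibiotic library (quartiles 7 and 11) and 12 in the vehicle library (quartiles 9.25 and 16). The lowest antibiotic barcode had 1 and the highest 45, against 4 and 82 in the vehicle library, so the ranges overlapped.

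Promoters of these genes were searched for the letters GAAANNGAAA, or TTTCNNTTTC on the other strand, the core of the interferon-stimulated response element. In RefSeq promoters on GRCm38, from 250 bases before to 50 after each gene's start, the letters were found for 11 of 23 interferon-list genes that had a promoter entry, 6 of the 12 that were 1.5-fold or more lower and 5 of the 11 others. Of all 32851 promoters 3.44% held them, and of the measured genes 4.26%. Windows of 60 bases are shown 5′ to 3′ on the gene's strand for 3 lower genes, with the matching letters in capitals, and overlapping matches run together. Isg15 (chr4:156200857-156200916) had 3 matches, Bst2 (chr8:71537563-71537622) 2, and Gbp2 (chr3:142620584-142620643), a guanylate-binding protein chosen after its values were seen, 1.
Isg15: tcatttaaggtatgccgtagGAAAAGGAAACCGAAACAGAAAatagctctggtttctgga
Bst2: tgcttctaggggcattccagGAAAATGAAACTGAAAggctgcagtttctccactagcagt
Gbp2: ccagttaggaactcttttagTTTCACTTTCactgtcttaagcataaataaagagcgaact
A match is a description of the letters, and binding was not measured. Gbp2 had a log2 ratio of -0.68 and Bst2 one of -0.99 in Trav11 barcodes.

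A second large group comprised S100 proteins, galectins, annexins, serpin protease inhibitors, actin and its regulators. Many of these are genes that effector and tissue lymphocytes express with adhesion and motility. Of 21 measured, 20 were lower and 12 were 1.5-fold or more lower in antibiotic Trav11 barcodes, beside 59.9% and 7.02% of all genes, with a median log2 ratio of -0.71. Lgals1, which encodes galectin 1, was at 144 CPM in antibiotic and 672 CPM in vehicle Trav11 barcodes, a ratio of 0.214 (interval 0.187 to 0.245), and was found in 188 of 513 and 203 of 258 barcodes. S100a4 was at 32.3 and 113 CPM and S100a6 at 222 and 576 CPM. Anxa2, which encodes annexin A2, was at 35.2 and 102 CPM, though one vehicle barcode held 19 of its 120 UMIs. The abundant cytoskeletal transcripts Actb (4713 and 8293 CPM) and Tmsb4x (12650 and 20736 CPM) were lower as well. The whole list took 3.48% of antibiotic and 5.41% of vehicle UMIs. Per thinned barcode the median was 50 UMIs in the antibiotic library (quartiles 43 and 61) and 78 in the vehicle library (quartiles 67 and 90).

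In Cd8b1 Trac barcodes the same list had a median log2 ratio of -0.15, with S100a4 at a ratio of 1.54 and S100a6 at 1.01. In Trav11-negative Trac barcodes it was -0.57.

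**Figure D4:**
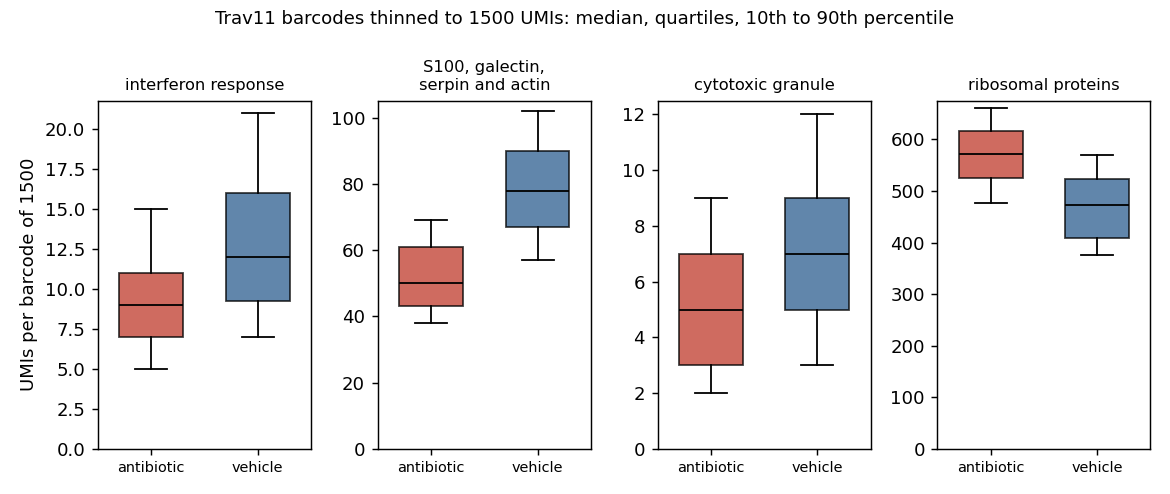
UMIs of 4 gene lists per Trav11 barcode after thinning to 1500 UMIs (y axes), antibiotic (red, n = 513) beside vehicle (blue, n = 258). Boxes show median and quartiles and whiskers the 10th and 90th percentiles. The medians are 9 and 12 for interferon response, 50 and 78 for the S100 and actin list, 5 and 7 for cytotoxic granule genes and 571 and 472 for ribosomal proteins.

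Immediate early and heat shock genes, which respond to stimulation and to handling of cells, were in part lower. Fos was at 51.9 CPM in antibiotic and 163 CPM in vehicle Trav11 barcodes, a ratio of 0.318 (interval 0.248 to 0.405), and Jun at 98.9 and 249 CPM. In B cell barcodes the ratios were 1.08 for Fos and 0.602 for Jun. Of 14 immediate early genes, 5 were 1.5-fold or more lower (Fos, Jun, Junb, Ppp1r15a and Klf6), beside 7.02% of all genes. Zfp36l2 was 1.5-fold or more higher, beside 3.09%. Klf6 lay just past 1.5-fold at a log2 ratio of -0.61 and was short of it in several alternatives, among them -0.45 without ribosomal genes in the total. Hspa1a, the stress-induced chaperone HSP70, was at 7.83 CPM in antibiotic and 115 CPM in vehicle barcodes, a ratio of 0.0679 (interval 0.0377 to 0.114), and one antibiotic barcode held 12 of its 16 UMIs. It was also lower in each other set, with ratios of 0.0484 in Trav11-negative Trac, 0.0655 in Cd8b1 Trac, 0.486 in B cell and 0.117 in NK barcodes. Dnajb1, Dnaja1 and Hsp90aa1 were the others of 12 chaperone and cold-inducible genes past 1.5-fold lower, beside 7.02% of all genes.

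The remaining leading lower genes differed in how their UMIs were spread. Rsrp1, a splicing-related gene, was at 194 CPM in antibiotic and 503 CPM in vehicle Trav11 barcodes and was seen in 262 of 513 and 216 of 258. Hist1h2ap, a replication-dependent histone, was at 12.7 and 119 CPM, but one vehicle barcode held 62 of the 139 vehicle UMIs. The 3 vehicle barcodes with the most UMIs of Stmn1, Mki67, Top2a, Birc5 and Hist1h2ap had 152, 126 and 55 of them, while no antibiotic Trav11 barcode had more than 2. Another vehicle barcode held 2664 of the 2720 vehicle hemoglobin UMIs. With vehicle barcodes of 10 or more hemoglobin or 3 or more such cycling UMIs left out, the log2 ratio of Hist1h2ap was -0.29 in place of -3.20, and 224 genes were 1.5-fold or more lower in place of 252.

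Of 14 measured genes that define NKT1 cells, 4 were higher and 10 lower in antibiotic Trav11 barcodes, beside 59.9% lower among all genes, with a median log2 ratio of -0.38. Klrb1c was 1.5-fold or more higher, and Ifng, Slamf7, Xcl1 and Nkg7 were 1.5-fold or more lower, beside 3.09% and 7.02% of all genes. Tbx21 was at 88.1 CPM in antibiotic and 106 CPM in vehicle barcodes, a ratio of 0.832 (interval 0.658 to 1.05), and Il2rb, the interleukin 2 and 15 receptor chain, at 521 and 501 CPM, a ratio of 1.04 (interval 0.939 to 1.15). Cxcr3, the receptor for interferon-induced chemokines, was at 380 and 490 CPM, and Klrd1, which encodes CD94, at 248 and 343 CPM.

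NKT2 and NKT17 genes were few at this depth. Of 10 NKT2 genes measured, 4 were higher and 6 lower, near the 40.1% higher and 59.9% lower among all genes. Their median log2 ratio was -0.09, and 0.07 without ribosomal genes in the total. Plac8 was 1.5-fold or more lower, beside 7.02% of all genes, at 291 CPM in antibiotic and 483 CPM in vehicle Trav11 barcodes. Gata3, the type 2 regulator, was at 112 and 107 CPM, a ratio of 1.05 (interval 0.841 to 1.32). Zbtb16 was at 48.0 and 65.8 CPM, a ratio of 0.729 (interval 0.536 to 0.996). Its log2 ratio ran from -0.63 to 0.04 over the 14 alternatives of the processing, so its direction was not kept in all. Of the 16 NKT17 genes 4 were measured. Tmem176a, Tmem176b and Lmo4 had ratios of 1.35, 1.41 and 1.44, and Ly6g5b was 1.5-fold or more lower at 0.444, beside 7.02% of all genes. Il17a and Il17f, the cytokines that define NKT17 cells, and Il1r1 had no UMI in either library.

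Cytokine transcripts were mostly low, and of the 8 measured Ifng had the ratio farthest from 1. It was at 29.4 CPM in antibiotic and 97.4 CPM in vehicle Trav11 barcodes, a ratio of 0.302 (interval 0.217 to 0.416), and was found in 51 of 513 and 76 of 258 barcodes. In Trav11-negative Trac barcodes the ratio was 0.442. Il4 was at 72.0 and 101 CPM, a ratio of 0.714 (interval 0.557 to 0.918). The other 6 cytokines measured had ratios between 0.875 and 1.11, among them Ltb at 1144 and 1308 CPM. Tnf had 24 and 19 UMIs, and Il10, Il17a and Il21 had none.

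The pair of chemokines measured went opposite ways. Ccl5, which attracts T cells and monocytes, was the most abundant NKT1 transcript and was at 4066 CPM in antibiotic and 3370 CPM in vehicle Trav11 barcodes, a ratio of 1.21 (interval 1.16 to 1.25). It was found in 480 of 513 and 244 of 258 barcodes, with a median of 3518 and 2227 CPM per barcode. In Trav11-negative Trac barcodes Ccl5 was at 3706 CPM in antibiotic and 4159 CPM in vehicle, a ratio of 0.891 (interval 0.881 to 0.902). The difference between the sets was not tested. Among Trav11 barcodes the log2 ratio of Ccl5 was 0.27, and it was -0.04 with 2 or more Trav11 UMIs required and 0.43 without ribosomal genes in the total. Xcl1, the chemokine that attracts cross-presenting dendritic cells, was at 214 and 380 CPM, a ratio of 0.564 (interval 0.493 to 0.645). With 2 or more Trav11 UMIs required its log2 ratio was -0.24 in place of -0.83, below 1.5-fold.

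SLAM receptors, which NKT cells need in the thymus, did not share a direction. Of 9 SLAM family and adaptor genes measured, 5 were higher and 4 lower, beside 40.1% higher and 59.9% lower among all genes. Cd48 was at 172 CPM in antibiotic and 354 CPM in vehicle Trav11 barcodes, a ratio of 0.487 (interval 0.422 to 0.563), and Slamf7 at 56.8 and 110 CPM, a ratio of 0.515 (interval 0.398 to 0.668). The log2 ratio of Cd48 was -1.04, but -0.56 with 2 or more Trav11 UMIs required and -0.57 with barcodes thinned before the rule, both below 1.5-fold. Cd84 was at 200 and 137 CPM, a ratio of 1.46 (interval 1.21 to 1.77). The adaptor Sh2d1a, which encodes SAP, was at 178 and 175 CPM, a ratio of 1.01 (interval 0.853 to 1.21).

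Of 13 NK receptors 4 were higher and 9 lower, beside 40.1% higher and 59.9% lower among all genes. Their median log2 ratio was -0.25, and 0.18 with 2 or more Trav11 UMIs required. Il18r1 and Il18rap, the chains of the interleukin 18 receptor, were 1.5-fold or more higher with Klrb1c, beside 3.09% of all genes. The 2 chains rested on 82 and 74 antibiotic and 30 and 26 vehicle UMIs. Il18r1 had a log2 ratio of 0.36 with exactly 1 Trav11 UMI, and Il18rap 0.43 with 2 or more, both below 1.5-fold. Klre1 and Klra3 were 1.5-fold or more lower, beside 7.02% of all genes. Klrk1, which encodes NKG2D, was at 301 CPM in antibiotic and 332 CPM in vehicle Trav11 barcodes, a ratio of 0.906 (interval 0.797 to 1.03), and Cd160 at 260 and 378 CPM.

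Of 20 survival genes 11 were higher and 9 lower in antibiotic Trav11 barcodes, beside 40.1% higher and 59.9% lower among all genes, and the median log2 ratio was 0.02. Il7r, Gimap5, a lymphocyte survival GTPase, and Socs2, a cytokine signalling inhibitor, were 1.5-fold or more higher, beside 3.09% of all genes. Cish, another such inhibitor, was 1.5-fold or more lower, beside 7.02%. Bcl2, the anti-apoptotic protein, was at 548 CPM in antibiotic and 401 CPM in vehicle barcodes, a ratio of 1.37 (interval 1.23 to 1.53), and at 573 and 364 CPM in Trav11-negative Trac barcodes. Bcl2l11, its pro-apoptotic partner BIM, was at 49.0 and 39.3 CPM, a ratio of 1.25 (interval 0.870 to 1.81).

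Of 23 lineage transcription factors measured, 10 were higher and 13 lower, near the 40.1% higher and 59.9% lower among all genes. Their median log2 ratio was -0.07, and it was 0.09 without ribosomal genes in the total and 0.0068 with the median ratio set to 1. Ikzf2, which encodes Helios, was 1.5-fold or more higher, beside 3.09% of all genes. It was at 58.3 CPM in antibiotic and 36.7 CPM in vehicle Trav11 barcodes, a ratio of 1.59 (interval 1.11 to 2.30). Runx3, Tox and Klf6 were 1.5-fold or more lower, beside 7.02% of all genes. Runx3, a factor of cytotoxic lineages, was at 70.0 and 116 CPM, a ratio of 0.603 (interval 0.473 to 0.768). The abundant Id2 was at 2662 and 2374 CPM, a ratio of 1.12 (interval 1.07 to 1.17).

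Of 18 genes of T cell receptor signalling 6 were higher and 12 lower, beside 59.9% lower among all genes, with a median log2 ratio of -0.10 that was 0.06 without ribosomal genes in the total. Among them were Dusp2 and Tespa1, 1.5-fold or more higher, and Cd40lg, Batf and Nfatc2, 1.5-fold or more lower, beside 3.09% and 7.02% of all genes. Of 14 genes of the NF-kB pathway none was past 1.5-fold, beside 3.09% higher and 7.02% lower among all genes. Of 9 glucocorticoid and stress genes Tsc22d3, Txnip and Pik3ip1 were 1.5-fold or more higher, beside 3.09% of all genes. None of the 9 was 1.5-fold or more lower, beside 7.02%. Homing and residency genes were lower in 16 of 18, 3 of them 1.5-fold or more, beside 59.9% and 7.02% of all genes. Rgs1 and Rgs2, regulators of G protein signalling, were among these 3.

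Antigen presentation by MHC class I was lower in antibiotic Trav11 barcodes for 18 of 20 genes, 6 of them 1.5-fold or more, beside 59.9% and 7.02% of all genes. B2m, the light chain, was at 4821 CPM in antibiotic and 7399 CPM in vehicle Trav11 barcodes, a ratio of 0.652 (interval 0.633 to 0.671), and H2-K1 at 1821 and 2636 CPM. B2m lay just past 1.5-fold at a log2 ratio of -0.62 and was short of it in 4 alternatives, at -0.57 with 2 or more Trav11 UMIs, -0.54 with the median ratio set to 1, -0.50 thinned and -0.46 without ribosomal genes in the total. The list's median log2 ratio was -0.46, beside -0.35 in Trav11-negative Trac and -0.26 in B cell barcodes. T cell receptor and CD3 genes were lower in 10 of 10, none 1.5-fold or more, beside 59.9% and 7.02% of all genes. Cd3e was at 456 and 546 CPM.

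Ribosomal protein genes were higher in 81 of 83, beside 40.1% of all genes. Only 1 of them, Rpl22l1, was past 1.5-fold higher, beside 3.09% of all genes. The list's median log2 ratio was 0.30, beside 0.25 in Trav11-negative Trac and 0.05 in B cell barcodes. Per thinned barcode the median was 571 ribosomal UMIs in the antibiotic library (quartiles 525 and 617) and 472 in the vehicle library (quartiles 409.25 and 523.75). The mitochondrial genome's genes for oxidative phosphorylation were higher in 10 of 11, with mt-Nd1 and mt-Nd5 past 1.5-fold, beside 40.1% and 3.09% of all genes. Those of the nucleus were lower in 58 of 77, beside 59.9% of all genes. Of these 77, Ndufa1 and Atp5j2 were past 1.5-fold lower, a smaller share than the 7.02% of all genes. The median log2 ratios were 0.28 for the mitochondrial and -0.24 for the nuclear genes. Glycolytic genes were lower in 12 of 14, beside 59.9% of all genes, with a median log2 ratio of -0.10 that was 0.06 without ribosomal genes in the total. Gapdh was at 581 CPM in antibiotic and 874 CPM in vehicle Trav11 barcodes.

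**Figure D5:**
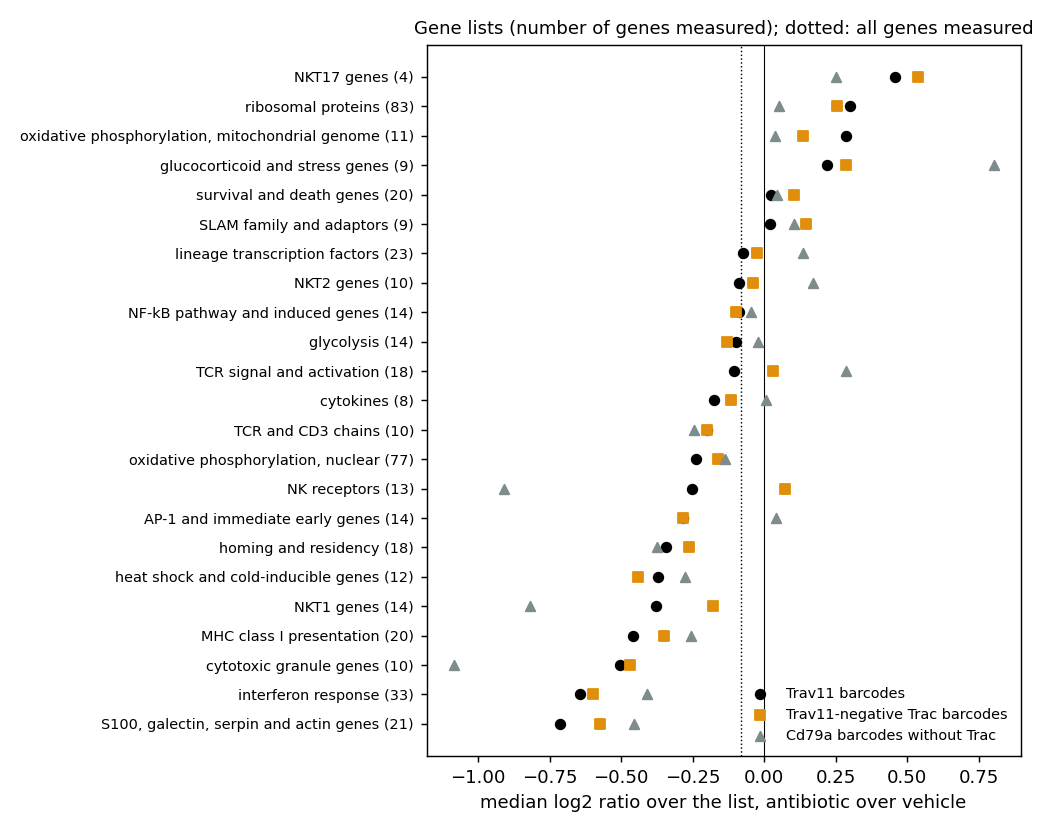
Median log2 ratio, antibiotic over vehicle (x axis), of each gene list with 4 or more genes measured (y axis, number of genes in brackets) in Trav11 barcodes (black), Trav11-negative Trac barcodes (orange) and B cell barcodes (grey). The dotted line is the median of all genes, -0.08. The interferon list lies at -0.64 and the S100 and actin list at -0.71 in Trav11 barcodes, and ribosomal proteins lie at 0.30.

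Trav11 barcodes were also divided by Cd4, since invariant NKT cells are CD4+ or double negative. The group without a Cd4 UMI can also hold CD4+ cells whose Cd4 transcripts were not captured, so it is not a double negative set. A Cd4 UMI was found in 81 of 513 antibiotic barcodes (median 4076 UMIs, against 3658 without Cd4) and in 59 of 258 vehicle barcodes (median 4438 against 4037). Within each library Izumo1r, the folate receptor 4 gene, was higher with Cd4, by ratios of 1.59 (interval 1.19 to 2.10) in the antibiotic and 1.97 (interval 1.42 to 2.71) in the vehicle library. Nkg7 was lower with Cd4, at 0.873 (interval 0.789 to 0.965) and 0.820 (interval 0.744 to 0.903), as was Klrk1, at 0.647 (interval 0.501 to 0.825) and 0.762 (interval 0.586 to 0.980). Socs2, Cd226, Ccr2, Rgs1 and S100a4 were lower with Cd4 in both libraries too, while Zbtb16 was at 36.0 CPM with and 50.5 CPM without Cd4 in the antibiotic library and at 66.3 and 65.6 CPM in the vehicle library. The intervals treat barcodes of 1 library as independent counts and say nothing of spread between mice.

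Barcodes with a Klrb1c UMI, 429 antibiotic and 171 vehicle ones, were compared with those without. The latter can likewise hold cells whose Klrb1c transcripts were not captured. Klrd1 was higher with Klrb1c, by ratios of 1.68 (interval 1.24 to 2.31) in the antibiotic and 2.21 (interval 1.70 to 2.90) in the vehicle library. Gzmb was lower, at 0.556 (interval 0.348 to 0.921) and 0.645 (interval 0.522 to 0.799), and so were S100a4, S100a6 and Cd7. A single vehicle barcode held many of the vehicle Gzmb UMIs, and its side of this split is not reported here, nor are the depths of the groups. Here too the intervals treat barcodes of a library as independent counts and say nothing of spread between mice.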

How the data were processed

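The authors deposited UMI counts per gene and barcode, whole numbers for 28692 genes in unfiltered barcodes, with no normalization. Cell Ranger, bcl2fastq and the build mm10 are listed by the submitters' processing notes, and tool versions are not given. Positions came from GENCODE vM21, which held 99.0% of the gene IDs.

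UMIs of the members were summed per library and scaled to CPM. Log2 ratios add 0.5 to each count, and ratios with their exact conditional intervals do not. Genes with 100 or more UMIs in both libraries together were compared, without the 4 rule genes, and called at 1.5-fold. Shares have Clopper-Pearson intervals. Doublets were marked with Scrublet in scanpy 1.11.5 at an expected 6% and kept. It marked 141 of 7050 antibiotic and 400 of 9002 vehicle barcodes, of which 2 and 1 were members. Named genes are the 12 leading higher and 12 leading lower ones by the interval bound nearest 1 (at least 100 CPM), 10 and 10 against Trav11-negative Trac barcodes, all measured members of 9 short lists and up to 6 abundant ones of the others. Genes past 1.5-fold that are named to spell out a count of 6 or fewer, and genes given by UMIs alone, fall outside this rule and were chosen after their values were seen. Members and the 39 gene lists were chosen with earlier results of these data known. The interval and ratio code was tested on simulated data. Python 3.11.15, numpy 2.4.6, scipy 1.17.1 and pandas 2.3.3 were used. Results for some genes are not reported here.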

Additional observations from a re-analysis of the deposited data

Results flagged for a closer look

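Ikzf2 and Ccl5 had ratios above 1 in Trav11 barcodes and below 1 in Trav11-negative Trac barcodes of the same libraries. Ikzf2 had a log2 ratio of 0.65 in Trav11 barcodes, with 58.3 CPM in antibiotic and 36.7 CPM in vehicle, and a ratio of 0.903 in Trav11-negative ones. Ccl5 had a log2 ratio of 0.27 and a ratio of 0.891 in the same sets. Neither difference was tested. Hemoglobin genes went the other way, with log2 ratios of -9.21 for Hba-a1, -8.30 for Hba-a2, -8.22 for Hbb-bs and -7.22 for Hbb-bt in Trav11 barcodes, and 1 vehicle barcode held 2664 of the 2720 vehicle hemoglobin UMIs. These differences were not tested either.

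Trav11 UMIs also occurred in barcodes of at least 500 but under 1500 UMIs, which the quality limits leave out. They were found in 14 of 261 such antibiotic barcodes (5.36%, interval 2.96% to 8.84%) and in 10 of 523 vehicle ones (1.91%, interval 0.921% to 3.49%), of which 12 and 8 also had a Trac UMI.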

How the results depend on the processing

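No paired analysis was possible because there is 1 library per condition. The share of Trav11 barcodes kept a ratio of antibiotic over vehicle between 2.32 and 3.26, the highest with 2 or more Trav11 UMIs required. Genes 1.5-fold or more higher numbered 42 and lower 92 with 2 or more Trav11 UMIs, 29 and 60 with barcodes thinned to 1500 UMIs before the rule, and 560 and 640 with genes of 30 or more UMIs. With the median ratio set to 1, 169 were higher. Without ribosomal genes in the total, which was chosen after seeing the data, 266 were higher and 112 lower. Fewer genes reach 100 UMIs in the first pair of settings. Of 78 named genes past 1.5-fold, 34 stayed past it in all 14 alternatives. Those that reversed were Apoe (log2 ratio -1.53 thinned and -1.37 with exactly 1 Trav11 UMI, against 0.98), H2afx (0.75 thinned and 0.0090 without red cell and cycling barcodes), Hba-a2 (0.50 thinned), Klra3 (1.24 thinned) and Stmn1 (0.14 thinned), and the cause was not tested. Against Trav11-negative Trac barcodes, the 31 genes past 2-fold became 7 with Cxcr6 required, 17 thinned and 46 with 2 or more Trav11 UMIs. V beta 8, 7 or 2 barcodes were 38.6% of those with a Trbv UMI and 25% after thinning. The alternatives for these last 2 results, and those with exactly 1 Trav11 UMI or without red cell and cycling barcodes, were also chosen after seeing the data.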
